A study of Drosophila melanogaster with 21 samples.

Results

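The genes described here encode the proteins of the mitochondrial ribosome of Drosophila melanogaster. They are all 73 of the 13955 genes in the brain and ovary count tables whose symbol starts with mRpL (47 genes, large subunit) or mRpS (26 genes, small subunit). No measured value was used to choose them. They are spread over the chromosome arms, with 21 on 3R, 17 on 3L, 12 on 2L, 12 on 2R and 11 on X. The S2 cell table, which lists transcripts, held 72 of them, and mRpL53 had no row in it. Subunits were assigned by symbol, and 2 genes named for the small subunit, mRpS30 and mRpS18A, have mammalian counterparts that sit in the large subunit.

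Mitochondrial ribosomes translate the few proteins that the mitochondrial genome encodes, which are subunits of the respiratory chain and of the ATP synthase. Their RNA is encoded in the mitochondrial genome, whereas every protein of the particle is encoded in the nucleus, made in the cytoplasm and imported. Many of these proteins descend from bacterial ribosomal proteins, and others are found only in mitochondria. By the nomenclature of the mammalian particle, 46 of the 73 members have a bacterial counterpart and 27 do not.

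RNA was sequenced in 21 libraries to ask what the transcription factor CG11247, also called Saft, regulates. Schneider S2 cells gave 3 groups of 2 libraries. All were from clone 9C, a single clone that carries the plant F-box protein OsTir1 and CG11247 tagged on both alleles with FLAG and an auxin-inducible degron. Cells received solvent only (untreated) or 500 µM of the auxin indole-3-acetic acid for 24 h or 48 h, and no cells without the tag received auxin. Brains and ovaries came from mated females aged 3 to 4 days, with 40 brains or 5 ovary pairs pooled in a library. Each tissue was taken from the parental white stock (wild type) and from 2 frameshift alleles of CG11247 made by CRISPR-Cas9 in that isogenised stock. Brain had 2 libraries and ovary 3 per genotype. The labels list both mutants as stocks over the balancer chromosome TM3,Sb and do not state whether the dissected females were homozygous. The alleles, which define mutant 1 and mutant 2 throughout, are shown with 2 bases in capitals on each side of the deletion. CG11247 lies on 3L. Mutant 1 lacks 1 base of exon 1 and mutant 2 lacks 2 bases of exon 2.
mutant 1: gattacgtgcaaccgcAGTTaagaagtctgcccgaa
mutant 2: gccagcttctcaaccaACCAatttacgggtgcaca

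An S2 library held between 6423866 and 9145515 counts. Brain libraries were deeper, with 39012114 to 45641699 counts, and ovary libraries held 14099170 to 21504138. Levels are given as CPM, a library's counts scaled to a common total with TMM factors, and differences as log2 changes with a standard error (SE). A gene was called changed at a Benjamini-Hochberg adjusted p under 0.05 in edgeR's quasi-likelihood F test, adjusted over all genes tested. The tissues carried their markers: the summed level of 6 neural and glial genes was 10480 to 12000 CPM in brain and at most 5.75 CPM in ovary, and 6 germline genes summed to 5964 to 6616 CPM in ovary and at most 158.1 CPM in brain. CG11247 RNA was 49.7 to 56.6 CPM in wild-type ovary, 24.88 to 26.01 CPM in mutant 1 and 59.4 to 63.0 CPM in mutant 2. In brain it was 112.0 and 118.0 CPM in wild type, 86.1 and 83.8 CPM in mutant 1 and 143.4 and 130.9 CPM in mutant 2. In S2 cells it was 18.3 to 28.6 CPM over the 3 groups. In edgeR, CG11247 was called lower in mutant 1 ovary (log2 change -1.06, adjusted p = 1.3e-07) and brain (-0.41, adjusted p = 0.0039). It was called higher in mutant 2 ovary (0.21, adjusted p = 0.035) and brain (0.28, adjusted p = 0.030). These values set mutant 1 apart from the other genotypes in both organs. Small deletions and a protein degron need not change RNA level, so the values do not check the other labels. Every member passed the low-count filter in each table that lists it. A member had 18 to 1510 counts in an S2 library, between 119 and 8381 in a brain library and 81 to 3487 in an ovary library.

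Every member was detected in each table that lists it, at levels that differed widely. Brain and ovary values can be compared between genes after division by exon length. In brain the median level of the 73 members was 17.5 CPM per kb, with an interquartile ratio of 1.59. In ovary it was 29.9 CPM per kb, with an interquartile ratio of 1.79. S2 libraries read only the 3′ end of a transcript, so their CPM were not divided by length. There the median of 72 members was 33.4 CPM, and the interquartile ratio was 2.55. Medians moved little among the groups of a system. They were 17.5, 16.8 and 18.04 CPM per kb in wild-type, mutant 1 and mutant 2 brains, and 31.0, 29.7 and 29.2 CPM per kb in the corresponding ovaries. In S2 cells they were 32.6 CPM without auxin, 34.7 CPM at 24 h and 34.4 CPM at 48 h.

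**Figure D1:**
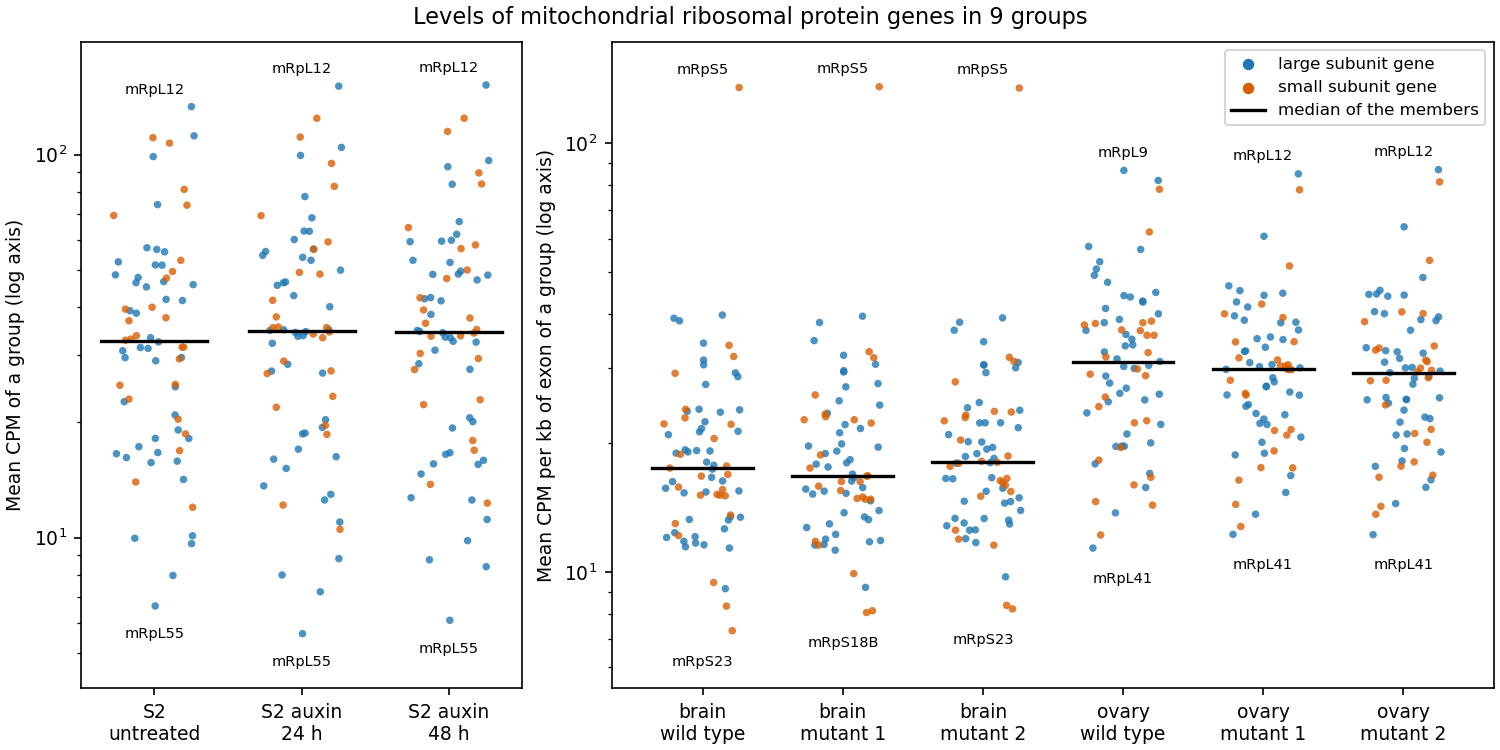
Mean level of each mitochondrial ribosomal protein gene in the 9 groups, as CPM in S2 cells (left) and as CPM per kb of exon in brain and ovary (right), both on log axes. Each point is a gene, coloured by subunit, the bar is the median over genes, and the highest and lowest gene of a group are named. mRpS5 stands alone at about 135 CPM per kb in brain, while the ovary medians of 29.2 to 31.0 CPM per kb lie above the brain medians of 16.8 to 18.04 CPM per kb.

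In brain, mRpS5 was far above every other member. It encodes the counterpart of bacterial S5, a small subunit protein near the path of the messenger RNA. Its level averaged 135.1 CPM per kb over the 6 brain libraries, against 39.5 for mRpL30 and 38.4 for mRpL28, the next members. The wild-type brain libraries held 220.6 and 233.4 CPM of mRpS5, and the wild-type ovary libraries 139.0, 123.6 and 131.9 CPM. Brain values lay above all ovary values for this gene. At the low end in brain were mRpS23 at 7.88, mRpS18B at 8.25 and mRpL21 at 9.37 CPM per kb.

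In ovary the leading member was mRpL12, at 84.6 CPM per kb over 9 libraries. In bacteria its counterpart forms the stalk that recruits translation factors. mRpS5 followed at 79.2 and mRpL9 at 70.4 CPM per kb, and mRpL41, mRpS33 and mRpL27 were lowest at 11.95, 13.08 and 13.95 CPM per kb. mRpL12 also led in S2 cells, at 145.5 CPM over 6 libraries, ahead of mRpS16 at 118.7 and mRpS7 at 112.3 CPM. The lowest S2 values were those of mRpL55, mRpL36 and mRpL3, at 6.11, 8.34 and 8.91 CPM. These 3 genes split by library number rather than by treatment. In untreated cells, library 1 held 2.32 CPM of mRpL55 and library 2 held 10.9 CPM, and library 1 was also the lower one at 24 h and at 48 h. The order of members was partly shared between the tissues, with a Spearman coefficient of 0.649 across 73 genes. Across 72 genes, S2 order related little to either tissue, at 0.0874 with brain and 0.0876 with ovary. Brain and ovary shared a library kit, a counting method and the length division, and S2 cells shared none of these.

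Median levels were close between subunits and between ancestries. In ovary the medians were 29.9 CPM per kb for the large and 29.9 for the small subunit, and 30.1 for members with a bacterial counterpart against 28.7 for the others. In brain they were 18.3 and 17.0 CPM per kb by subunit, and 17.5 and 17.6 by ancestry. In S2 cells they were 33.2 and 34.3 CPM by subunit, and 33.2 and 33.5 by ancestry.

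Members were lower in wild-type brain than in wild-type ovary. Of the 73, 62 were called lower and 3 higher in brain, and 8 were not called. Most genes differ between these organs: 42.8% of the 10029 genes tested were called lower in brain, 46.8% higher and 89.5% in all. The median log2 change of members was -0.75, against 0.10 for all genes tested. Scaling between organs is uncertain, since the TMM factors ran from 0.752 to 1.213, so the members' median is also given relative to that of all genes. The difference was -0.85 with TMM, -0.85 with RLE factors, -0.86 with upper-quartile factors and -0.93 with DESeq2. The corresponding counts of members called lower were 62, 55, 68 and 55, and of those called higher 3, 4, 1 and 4. Summed over the 73 members, wild-type brain held 1447 and 1460 CPM, and wild-type ovary 2242, 2343 and 2162 CPM. The groups did not overlap. In organs made of many cell types, fewer cells of a type and less RNA per cell cannot be told apart.

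**Figure D2:**
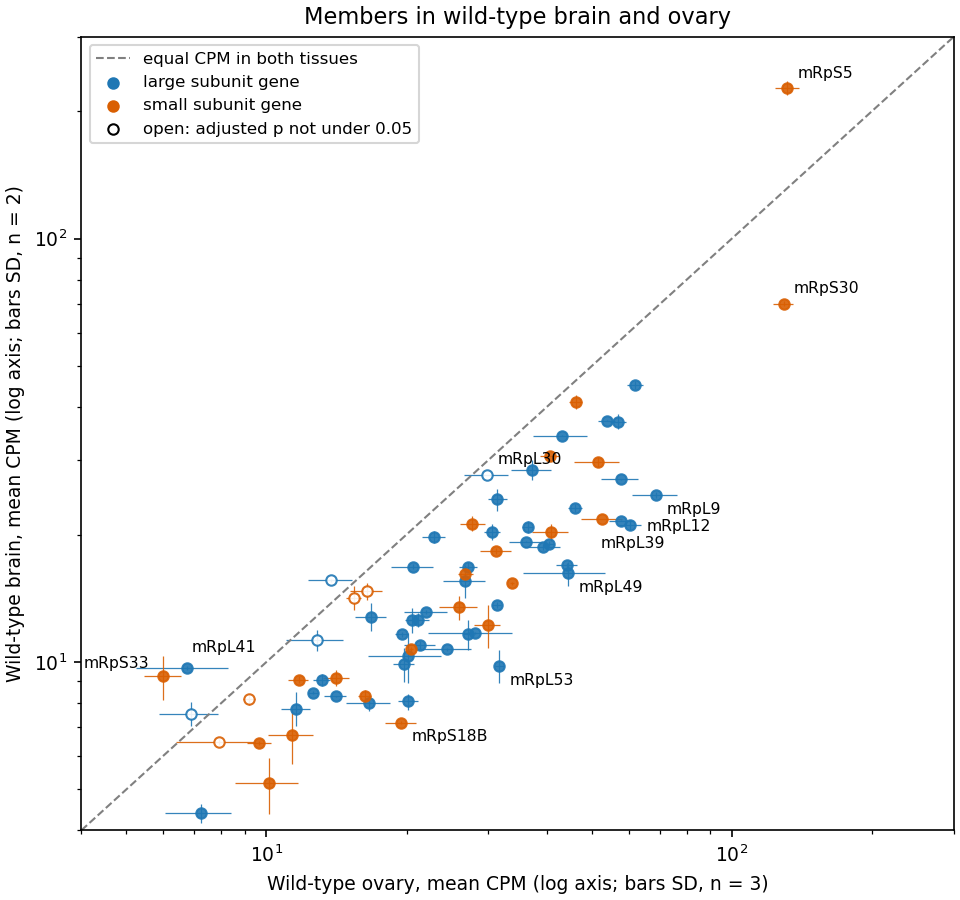
Mean CPM of each member in wild-type ovary (horizontal, n = 3) and wild-type brain (vertical, n = 2), both on log axes, with bars for the SD over libraries. The dashed line marks equal CPM, colours mark the subunit, and open points had an adjusted p of 0.05 or more. Most points lie under the line, mRpS5, mRpS33 and mRpL41 lie above it, and mRpL30 lies close to it. The position of mRpL53 depends on how shared reads were assigned, as described below.

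Both subunits took part. Lower calls covered 42 of 47 large subunit genes and 20 of 26 small subunit genes, with median log2 changes of -0.75 and -0.74. By ancestry they covered 38 of 46 members with a bacterial counterpart and 24 of 27 without, with medians of -0.70 and -0.81. The counts for the large subunit, for members without a bacterial counterpart and for all members include mRpL53. Its decrease was not present when shared reads were summed, as described below.

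mRpL12 had the second largest decrease. Its wild-type brain libraries held 21.5 and 20.7 CPM and its ovary libraries 60.3, 63.9 and 57.2 CPM, a log2 change of -1.52 (SE 0.09, adjusted p = 2.5e-10 in edgeR). Every brain value was below every ovary value. mRpL9, the counterpart of bacterial L9, held 25.1 and 24.5 CPM in brain and 65.5, 77.5 and 63.1 CPM in ovary (log2 change -1.47, SE 0.15, adjusted p = 5.9e-07 in edgeR). mRpL49, a protein found only in mitochondria, held 16.9 and 15.4 CPM in brain and 38.74, 54.78 and 39.99 CPM in ovary (log2 change -1.46, SE 0.19, adjusted p = 6.8e-06 in edgeR). Neither gene overlapped between the organs, although ovary library 2 stood above the other ovary libraries for both.

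Small subunit members with large decreases were mRpS18B, one of 3 paralogs related to bacterial S18, mRpS10, the counterpart of bacterial S10, and mRpS29, whose mammalian counterpart is the GTP-binding protein DAP3. mRpS18B held 7.22 and 7.16 CPM in brain and 20.97, 19.46 and 17.96 CPM in ovary, a log2 change of -1.43 (SE 0.11, adjusted p = 4.3e-09 in edgeR). mRpS10 fell by 1.29 on the log2 scale (SE 0.09) and mRpS29 by 1.27 (SE 0.08). The other large subunit members among the 12 largest decreases were mRpL39, mRpL19, mRpL32, mRpL36 and mRpL18. Their log2 changes ran from -1.43 for mRpL39 to -1.22 for mRpL18, and adjusted p in edgeR was at most 3.7e-05.

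Against this trend, mRpS5 was higher in brain by 0.79 on the log2 scale (SE 0.07, adjusted p = 5.1e-08 in edgeR). mRpS33, a small protein found only in mitochondria, held 8.46 and 10.0 CPM in brain and 5.52, 5.89 and 6.58 CPM in ovary (log2 change 0.62, SE 0.17, adjusted p = 0.0028 in edgeR). mRpL41, also without a bacterial counterpart, held 9.73 and 9.58 CPM in brain and 7.72, 5.02 and 7.54 CPM in ovary (log2 change 0.51, SE 0.17, adjusted p = 0.013 in edgeR). The groups did not overlap for these genes. With upper-quartile factors mRpS33 had an adjusted p of 0.106 and mRpL41 of 0.315, and without ovary library 2 mRpL41 had an adjusted p of 0.0632. The 8 members not called were mRpS21, mRpL27, mRpS6, mRpS25, mRpS28, mRpL30, mRpL33 and mRpL55, with log2 changes from -0.29 to 0.18.

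The largest decrease by the counts as deposited, that of mRpL53, depended on how shared reads were assigned. In the annotation the exons of mRpL53 on 2R lie entirely within those of CG33155, which is on the same strand, so the reads of the shared transcript can go to either name. Wild-type brain held 10.4 and 9.16 CPM under mRpL53 and 23.1 and 24.8 CPM under CG33155. Wild-type ovary held 31.9, 32.2 and 30.8 CPM under mRpL53 and 0.523, 1.86 and 1.05 CPM under CG33155. mRpL53 therefore took 27.0% to 31.0% of the pair's CPM in wild-type brain and 94.5% to 98.4% in wild-type ovary. On the log2 scale its change was -1.69 (SE 0.08, adjusted p = 1.7e-11 in edgeR). With both names summed, brain held 33.5 and 34.0 CPM and ovary 32.5, 34.1 and 31.9 CPM. The summed log2 change was 0.04 (SE 0.06, adjusted p = 0.525 in edgeR), so the decrease of mRpL53 was not present in the summed counts. Other overlaps touch members too. Exons of 42 members overlap a gene on the opposite strand, over 20% of their length in 6 of them (mRpL17, mRpL48, mRpS14, mRpS21, mRpS24 and mRpS9), and mRpL13 and mRpS14 share exon sequence with a gene on the same strand. Values of these members are uncertain, because the sources used here do not state whether counting used the strand.

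Most listed genes that work with the mitochondrial ribosome were lower in brain, and a few were higher. Of 11 mitochondrial translation factors, 9 were lower in brain and 1 higher, with a median log2 change of -0.72. EfTuM, the mitochondrial elongation factor Tu, was lower by a log2 change of -1.12 (SE 0.10, adjusted p = 2.4e-08 in edgeR). Of 17 genes listed as mitochondrial aminoacyl-tRNA synthetases, 13 were lower and 1 higher (median -0.57). This list, called synthetases below, also holds related genes such as the synthetase-like Slimp. The subunit genes that carry older names differed from each other. tko, which encodes the counterpart of bacterial S12, was higher in brain by 0.35 (SE 0.14, adjusted p = 0.027 in edgeR with TMM factors). That change is close in size to the shift between scaling methods. The median of all genes was 0.10 with TMM and -0.21 with upper-quartile factors. bonsai, the counterpart of S15, had a log2 change of -1.60 (SE 0.10, adjusted p = 2.1e-10 in edgeR). bonsai held 18.7 and 19.1 CPM in brain and 56.5, 59.7 and 55.9 CPM in ovary, with no overlap.

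Oxidative phosphorylation subunits went the other way from members. Of 73 tested, 58 were higher in brain and 1 lower, with a median log2 change of 0.78. Of the 13 transcripts of the mitochondrial genome, 7 were higher and none was lower (median 0.62), although 8 were higher with RLE factors, and with upper-quartile factors 3 were higher and 2 lower. Cytoplasmic ribosomal protein genes were the lowest list, with 85 of 86 lower and a median of -1.40. Genes of mitochondrial DNA maintenance were mixed, with 6 of 10 lower and 4 higher. The helicase mtDNA-helicase had a log2 change of -3.96 (SE 0.08) and the accessory polymerase subunit DNApol-gamma35 of 0.61 (SE 0.07). Of 3 genes of mitoribosome assembly and rRNA modification, 2 were lower and 1 was not called.

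**Figure D3:**
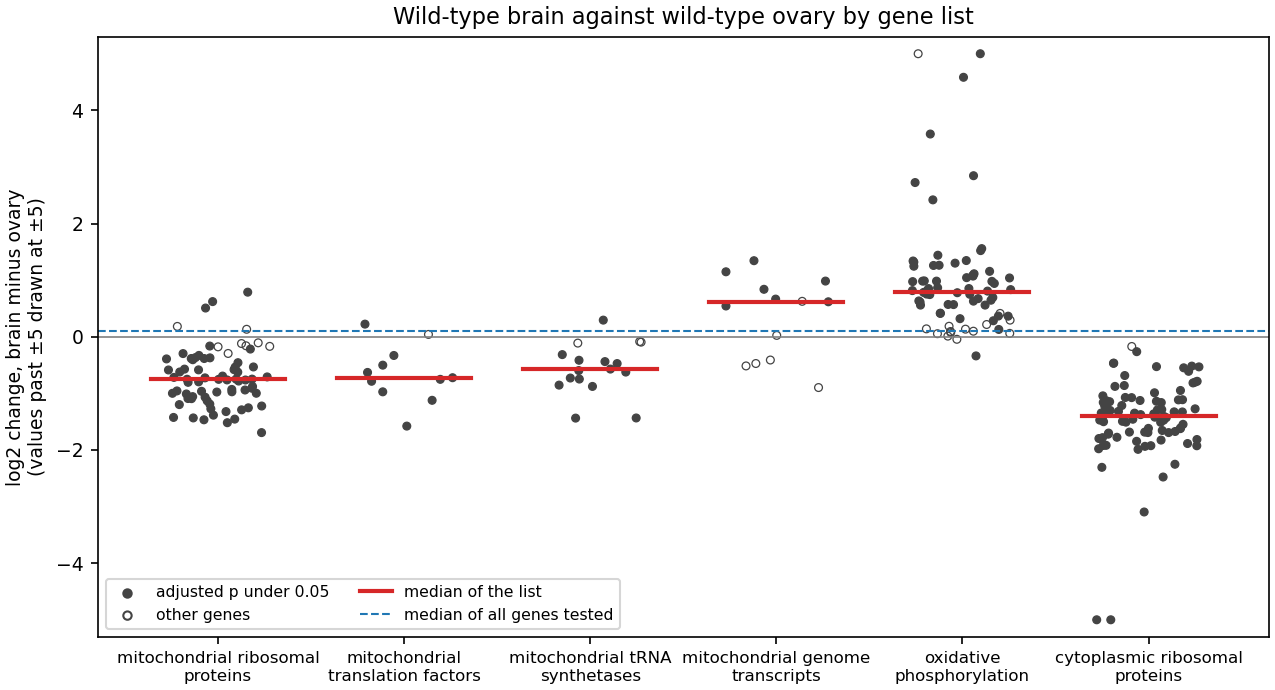
log2 change between wild-type brain and wild-type ovary (brain minus ovary) for each gene of 6 lists, with values past 5 in either direction drawn at the edge. Filled points had an adjusted p under 0.05, red bars are list medians and the dashed line is the median of all genes tested, 0.10. Members have a median of -0.75, oxidative phosphorylation subunits of 0.78 and cytoplasmic ribosomal proteins of -1.40.

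In mutant ovaries a minority of members changed, most of them downward. In mutant 1, 15 of 73 were called lower and 2 higher, against 11.2% lower and 12.2% higher among the 8312 genes tested (23.5% in all). In mutant 2, 8 were lower and 2 higher, against 7.35% lower and 8.77% higher among all genes (16.1% in all). As a share of the 73 members, lower calls in mutant 1 were 20.5% and higher calls 2.74%. The median log2 change of all members was -0.05 in mutant 1 and -0.09 in mutant 2, against 0.01 and 0.00 for all genes. Both comparisons share the wild-type libraries. No member differed between the mutants in edgeR or DESeq2, and none had an unadjusted p under 0.05. The 0.012% of all genes that edgeR called between them was CG11247 alone. The summed level of members was 2242, 2343 and 2162 CPM in wild type, 2164, 2041 and 2013 CPM in mutant 1 and 2197, 2062 and 1958 CPM in mutant 2. In each mutant, library 1 overlapped the wild-type range.

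**Figure D4:**
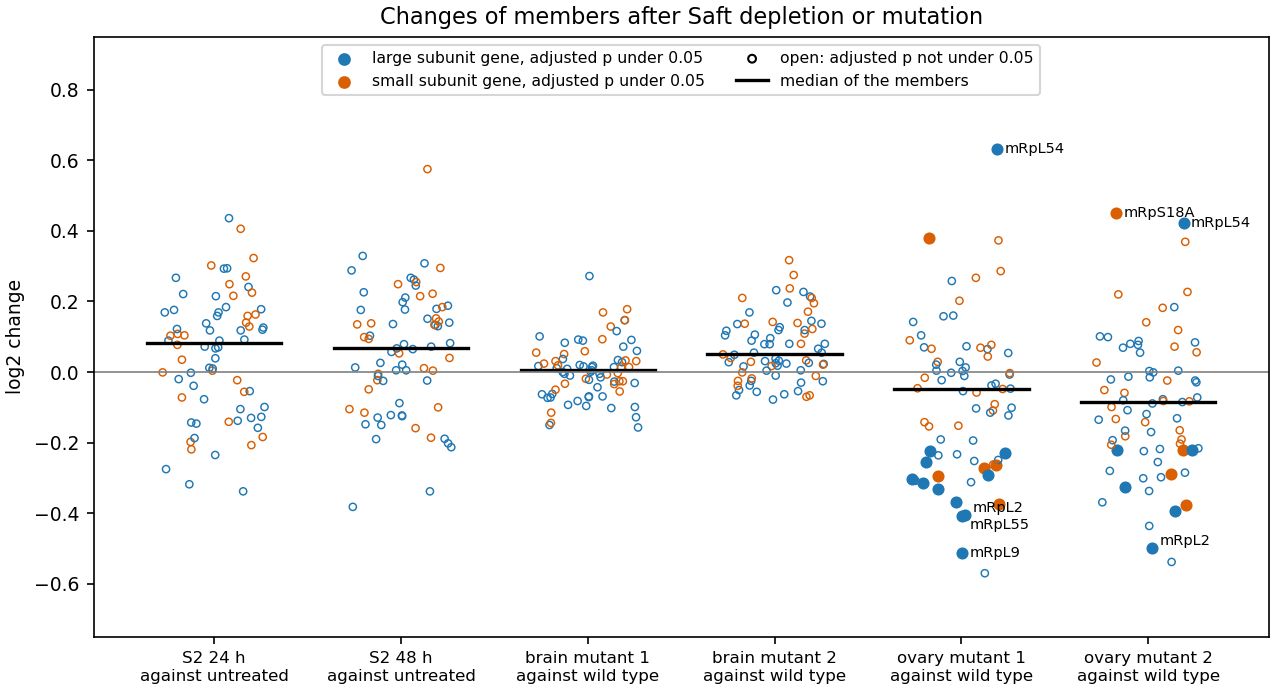
log2 change of each member in the S2, brain and ovary comparisons with their own untreated or wild-type libraries. Filled points had an adjusted p under 0.05, open points did not, colours mark the subunit and the bar is the median. Filled points occur in the 2 ovary comparisons, where mRpL54 is highest at 0.63 in mutant 1.

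mRpL54 and mRpS18A were the members called higher in the mutant ovaries. mRpL54, a large subunit protein found only in mitochondria, held 11.9, 10.7 and 12.2 CPM in wild type, 16.9, 16.1 and 20.8 CPM in mutant 1 and 18.1, 14.2 and 14.3 CPM in mutant 2. All 6 mutant libraries were above all 3 wild-type libraries. The log2 change was 0.63 (SE 0.12, adjusted p = 0.0051) in mutant 1 and 0.42 (SE 0.13, adjusted p = 0.042) in mutant 2, both in edgeR. mRpS18A, a paralog related to bacterial S18, held 14.9, 13.1 and 14.3 CPM in wild type, 17.5, 16.7 and 20.9 CPM in mutant 1 and 20.8, 19.6 and 17.6 CPM in mutant 2. Again no mutant library fell within the wild-type range. Its log2 change was 0.38 (SE 0.10, adjusted p = 0.023) in mutant 1 and 0.45 (SE 0.10, adjusted p = 0.015) in mutant 2, both in edgeR.

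mRpL2 had the largest decrease called in mutant 2, and mRpL19 was also called in both mutants. mRpL2 encodes the counterpart of bacterial L2, which lies close to the site of peptide bond formation. It held 37.3, 40.8 and 33.6 CPM in wild type, 31.4, 28.04 and 24.91 CPM in mutant 1 and 29.0, 26.3 and 23.6 CPM in mutant 2. Each mutant library was below each wild-type library, and mutant 1 and mutant 2 overlapped. The log2 change was -0.41 (SE 0.10, adjusted p = 0.017) in mutant 1 and -0.50 (SE 0.10, adjusted p = 0.0086) in mutant 2, both in edgeR. mRpL19, the counterpart of bacterial L19, held 42.6, 46.9 and 43.1 CPM in wild type, 40.4, 35.7 and 32.3 CPM in mutant 1 and 35.4, 33.3 and 32.1 CPM in mutant 2. Here too no mutant library reached the wild-type range. The log2 change of this gene was -0.29 (SE 0.08, adjusted p = 0.024) in mutant 1 and -0.40 (SE 0.08, adjusted p = 0.0078) in mutant 2, both in edgeR.

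mRpL9 and mRpL55 had the largest decreases called in mutant 1. That of mRpL36, the counterpart of bacterial L36, was larger but not called, with a log2 change of -0.57 (SE 0.19, adjusted p = 0.055) in mutant 1 and -0.54 (SE 0.19, adjusted p = 0.078) in mutant 2, both in edgeR. mRpL9 held 65.5, 77.5 and 63.1 CPM in wild type, 57.2, 51.2 and 36.3 CPM in mutant 1 and 48.4, 53.4 and 50.4 CPM in mutant 2. The third library of mutant 1 was the lowest of the 9. The log2 change was -0.51 (SE 0.15, adjusted p = 0.041) in mutant 1 and -0.44 (SE 0.15, adjusted p = 0.082) in mutant 2, both in edgeR. mRpL55 held 12.7, 15.4 and 13.2 CPM in wild type, 10.5, 11.4 and 9.27 CPM in mutant 1 and 10.8, 12.1 and 9.75 CPM in mutant 2. On the log2 scale its change was -0.41 (SE 0.12, adjusted p = 0.029) in mutant 1 and -0.34 (SE 0.12, adjusted p = 0.072) in mutant 2, both in edgeR. For both genes the wild-type and mutant libraries did not overlap. A test that fails in mutant 2 does not show a difference between the mutants.

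Small subunit genes with decreases were mRpS22, mRpS29, mRpS30 and mRpS31, all without a bacterial counterpart. mRpS22 held 52.1, 57.1 and 45.7 CPM in wild type, 43.0, 38.5 and 37.9 CPM in mutant 1 and 44.02, 40.05 and 34.91 CPM in mutant 2. Its log2 change was -0.37 in mutant 1 and -0.38 in mutant 2 (SE 0.10 in each, adjusted p = 0.019 and 0.026 in edgeR). mRpS30, the most abundant of them, held 126.1, 136.6 and 124.8 CPM in wild type, at most 113.4 CPM in mutant 1 (mean 107.6, SD 6.87, n = 3) and 112.3, 115.7 and 104.6 CPM in mutant 2. The mutant libraries of both genes lay below the wild-type libraries. mRpS31 was called in mutant 1 (log2 change -0.29, SE 0.06, adjusted p = 0.0073 in edgeR) and had -0.18 in mutant 2 (adjusted p = 0.065). The remaining members called lower were large subunit genes. mRpL28, mRpL38 and mRpL45 were called in both mutants, and mRpL18, mRpL23, mRpL24 and mRpL39 in mutant 1. In mammals the counterpart of mRpL45 sits where the nascent protein leaves the ribosome at the inner membrane. The log2 change of this gene was -0.23 in mutant 1 and -0.22 in mutant 2 (SE 0.06 in each).

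**Figure D5:**
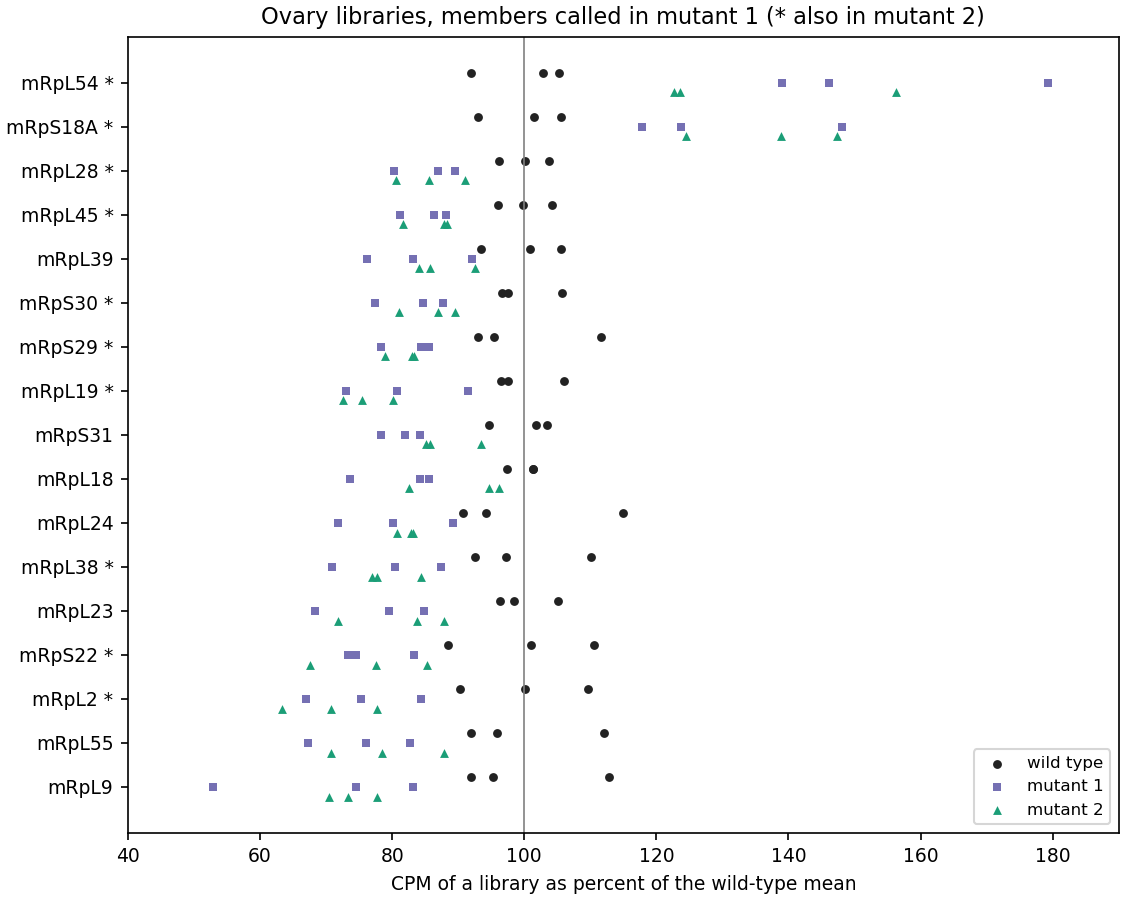
CPM of each ovary library as a percentage of the wild-type mean, for the 17 members called in mutant 1. The asterisk marks the 10 also called in mutant 2. Points are libraries of wild type, mutant 1 and mutant 2. mRpL54 and mRpS18A lie above 100% and the other 15 below it in mutant libraries, and the lowest point is the third library of mutant 1 for mRpL9.

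Lower calls in mutant 1 covered 11 of 47 large and 4 of 26 small subunit genes, and 8 of 46 members with a bacterial counterpart against 7 of 27 without. In mutant 2 they covered 5 of 47, 3 of 26, 3 of 46 and 5 of 27. Chromosome 3 carries both CG11247 and the balancer. In mutant 1, 9 of 38 members on it were lower, and 6 of 35 elsewhere. In mutant 2 it was 4 of 38 and 4 of 35. Among all genes, 10.3% of those on chromosome 3 and 11.8% of the others had lower calls in mutant 1. The shares in mutant 2 were 6.60% and 7.83%. Counting members whose libraries did not overlap between genotypes, 21 were lower and 6 higher in mutant 1, and 23 lower and 3 higher in mutant 2. The background of such genes was 20.4% lower and 21.5% higher in mutant 1, and 19.9% and 21.7% in mutant 2.

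Other gene groups and cell markers moved in the same ovaries. For oxidative phosphorylation, 18 of 69 subunit genes were called lower in mutant 1, against 20 of 69 in mutant 2, and none was called higher. For cytoplasmic ribosomal proteins the counts were 21 of 86 and 17 of 86, again with none higher. Among 11 translation factors the counts were 4 and 3, EfTuM among them each time (log2 changes -0.35 and -0.31, adjusted p = 0.017 and 0.037 in edgeR). The synthetase-like protein Slimp was lower too (-0.49 and -0.43, adjusted p = 0.0040 and 0.011 in edgeR). Of the 13 mitochondrial genome transcripts, none was called in edgeR. Their unadjusted p was under 0.05 in 1 higher and 1 lower transcript in mutant 1 and in 3 higher in mutant 2, while DESeq2 called 1 higher and 1 lower in mutant 1 and 1 higher in mutant 2. tko and bonsai were not called in either mutant. Eggshell markers, made by follicle cells late in egg development, summed to 22330 to 24660 CPM in wild type, 13720 to 15740 CPM in mutant 1 and 10470 to 13380 CPM in mutant 2, and 7 of 10 were called lower in each mutant. Germline markers summed to 6464 to 6616 CPM in wild type and 5964 to 6281 CPM in the mutants, with 2 of 6, yl and aub, called lower in each. In each mutant 4 of the 6 had a log2 change above 0, none of them called, and the list's median was 0.06 in mutant 1 and 0.05 in mutant 2. Muscle markers summed to 267.9 to 307.3 CPM in wild type, 321.2 to 326.1 CPM in mutant 1 and 283.8 to 513.3 CPM in mutant 2. The part of these cell types in the members' changes was not tested.

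Fat body markers, 4 genes with values, summed to 10.2, 36.7 and 1.97 CPM in the wild-type ovary libraries. They reached 2.20 CPM at most in mutant 1 and 16.2, 4.70 and 1.64 CPM in mutant 2. The 2 of these genes that passed the filter went in opposite directions. Lsp1gamma was called higher in mutant 1 (log2 change 1.00, SE 0.33, adjusted p = 0.0435 in edgeR) and had 0.77 in mutant 2, and Lsp2, not called, had -3.96 and -1.21. Leaving out the 3 libraries above 10 CPM, a choice made after seeing these values, ended every call: 0 members were lower or higher in either mutant in edgeR. Only 1 wild-type library remained, its spread was assumed to equal that of the other groups, and calls over all genes fell to 75 lower and 210 higher in mutant 1 and 35 lower and 204 higher in mutant 2. Member medians were then -0.05 in mutant 1 and -0.11 in mutant 2. Omitting library 2 of wild type left 3 lower calls in mutant 1, as did omitting library 3 of mutant 1. Omitting library 1 of wild type or library 2 of mutant 1 left 8. Lower calls in mutant 2 numbered 2 without wild-type library 2 or mutant 2 library 2, 3 without wild-type library 1 or mutant 2 library 3, and 15 without mutant 1 library 3. The calls of mRpS30 and mRpS31 in mutant 1, and of mRpL2 and mRpL19 in mutant 2, held when any 1 library was left out. For mRpS30 in mutant 2, the call ended on omission of any mutant 2 library, of library 1 or 2 of wild type, or of library 2 of mutant 1. For mRpL2 in mutant 1, it ended on omission of library 1 or 2 of wild type or library 2 or 3 of the mutant. For mRpL19 in mutant 1, it ended on omission of library 2 of wild type or library 2 or 3 of the mutant. mRpL54 held so in mutant 1, but in mutant 2 leaving out any wild-type or mutant 2 library, or library 2 of mutant 1, ended its call. Leaving out wild-type library 2 ended the mRpS18A call in each mutant, as did omission of library 3 in mutant 1 and of library 1 or 2 in mutant 2. The mRpL9 call in mutant 1 ended with no low-count filter (adjusted p = 0.0833) and on omission of any wild-type or mutant 2 library or of library 2 of mutant 1 (adjusted p = 0.0559 to 0.141). That of mRpL55 ended on omission of library 2 of wild type (adjusted p = 0.117) or library 3 of mutant 1 (adjusted p = 0.109). That of mRpS22 ended in each mutant on omission of library 1 or 2 of wild type or library 2 or 3 of the mutant (adjusted p = 0.0587 to 0.0949). In mutant 1 the calls of mRpL18, mRpL23, mRpL24, mRpL38 and mRpS29, and in mutant 2 those of mRpL28, mRpL38, mRpL45 and mRpS29, also each ended when certain single libraries were omitted.

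In brain no member was called in either mutant. edgeR gave 0 of 73 in mutant 1, with 2.66% of 9880 genes called (1.9% higher, 0.759% lower), and 0 of 73 in mutant 2, with 2.96% called (2.23% higher, 0.729% lower). At an unadjusted p under 0.05 there were 0 members in mutant 1 and 2, both higher, in mutant 2, and DESeq2 also called none. log2 changes ran from -0.16 to 0.27 in mutant 1 (median 0.01) and from -0.08 to 0.32 in mutant 2 (median 0.05). Both comparisons share the wild-type libraries. The members with the smallest p in mutant 1 were mRpL24, mRpL40 and mRpS28. mRpL24, the counterpart of bacterial L24, held 34.1 and 34.3 CPM in wild type, 30.5 and 30.2 CPM in mutant 1 and 30.6 and 33.5 CPM in mutant 2. The adjusted p was 0.599 in mutant 1 and 0.825 in mutant 2 in edgeR. mRpL40 and mRpS28 had log2 changes of 0.27 (SE 0.14) and 0.17 (SE 0.09).

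In mutant 2 brains the smallest p values were those of mRpS28, mRpS16 and mRpS34. mRpS28, the counterpart of bacterial S1 by the mammalian nomenclature, held 13.5 and 14.8 CPM in wild type, 15.5 and 15.8 CPM in mutant 1 and 16.3 and 16.5 CPM in mutant 2. Its log2 change in mutant 2 was 0.24 (SE 0.09, adjusted p = 0.307 in edgeR). mRpS16 and mRpS34 had log2 changes of 0.28 (SE 0.11) and 0.32 (SE 0.14) in mutant 2. Between the mutants no member was called, 1 had an unadjusted p under 0.05 and 0.0405% of all genes were called, 0.0202% in each direction. Cytoplasmic ribosomal proteins were higher in 13 of 84 genes in mutant 2 and in none in mutant 1, where 16 had an unadjusted p under 0.05. Translation factors, synthetases, oxidative phosphorylation subunits and mitochondrial genome transcripts had no call in either mutant brain in edgeR. At an unadjusted p under 0.05 these lists held 0, 1, 2 and 1 genes in mutant 1, and 1, 0, 9 and 1 genes in mutant 2. Summed fat body markers were 3156 and 3140 CPM in wild-type brain and 1694 to 2099 CPM in the mutants, and hemocyte markers 1187 and 1078 CPM against 798.1 to 873.6 CPM. All 4 genes of the fat body list had log2 changes under 0 in each mutant, but of unequal size. In mutant 1 they were -2.70 for Lsp1gamma, -2.43 for Fbp1 and -0.82 for Obp44a. In each mutant the sum fell less than Lsp1gamma and Fbp1 did, so it does not follow these genes. Obp44a also stood apart between wild-type organs, with a brain-minus-ovary log2 change of 14.66, against 5.94 for Fbp1 and 5.49 for Lsp2. The sum therefore need not stand for fat body RNA. Which cells of the brain samples this RNA came from was not tested.

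In S2 cells no member was called after auxin without pairing of the libraries, and 1 was called at 48 h with it. The unpaired edgeR fit called 0 of 72 at 24 h, with 0.0979% of 7152 genes called, and 0 of 72 at 48 h, with 0.112% called. At an unadjusted p under 0.05, 1 member was higher at 24 h and 1 at 48 h, and DESeq2 called none. Same-numbered S2 libraries deviated together, and with replicate number as a block the calls over all genes rose. That paired edgeR fit called 0 of 72 members at 24 h, against 1.93% of all genes (1.05% higher, 0.881% lower). At 48 h it called 1 of 72, higher, against 2.67% of all genes (1.54% higher, 1.13% lower). The member's share was thus close to the background. Both comparisons share the untreated libraries. The median log2 change was 0.08 at 24 h and 0.07 at 48 h, against -0.01 and 0.00 for all genes, and 45 and 48 of 72 members were above 0. Changes ran from -0.34 to 0.44 at 24 h and from -0.38 to 0.58 at 48 h. These libraries were the shallowest of the study, and the members named below had SEs of 0.17 to 0.21. In simulated counts the unpaired S2 fit called 10% of genes changed 2-fold.

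mRpS10 had the largest change at 48 h. It held 27.6 and 22.7 CPM in untreated cells, 37.6 and 29.0 CPM at 24 h and 38.7 and 36.3 CPM at 48 h. For this gene library 1 was the higher in each group. On the log2 scale its change was 0.41 (SE 0.21) at 24 h and 0.57 (SE 0.21) at 48 h, with an adjusted p of 1.0 at both times in edgeR. With replicate number as a block, the 48 h change was 0.58 and its adjusted p 0.0272, so mRpS10 was the member called in the paired edgeR fit. mRpL50, found only in mitochondria, held 45.8 and 38.0 CPM untreated, 58.9 and 54.5 CPM at 24 h and 51.2 and 48.1 CPM at 48 h. Its log2 change was 0.44 (SE 0.18) at 24 h and 0.24 (SE 0.18) at 48 h, again with an adjusted p of 1.0 in edgeR. mRpS24 at 24 h and mRpL24 and mRpL18 at 48 h followed, with log2 changes of 0.30, 0.33 and 0.29 (SE 0.17 to 0.18). Between 48 h and 24 h edgeR called 0 genes of any kind, with 10 higher and 7 lower at an unadjusted p under 0.05, none of them a member, and DESeq2 called no member. tko held 47.8 to 54.4 CPM untreated and 40.5 to 56.6 CPM after auxin, and bonsai 22.6 to 24.5 CPM and 24.2 to 33.3 CPM.

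The mutant effect was compared between the organs in a joint fit of all 15 tissue libraries, as the mean of both mutants in brain minus that in ovary. With TMM factors mRpS29 was the member called, with a difference of 0.39 (SE 0.10, adjusted p = 0.024 in edgeR), against 2.62% of 10029 genes called higher, 3.67% lower and 6.29% in all. In brain it held 21.8 and 21.7 CPM in wild type, 22.6 and 24.2 CPM in mutant 1 and 23.5 and 23.5 CPM in mutant 2. In ovary it held 50.3, 58.8 and 48.9 CPM in wild type, 44.5, 45.1 and 41.3 CPM in mutant 1 and 43.9, 41.6 and 43.8 CPM in mutant 2. Mutant libraries were above wild type in brain and below it in ovary, with no overlap in either organ. Of all genes, 20.4% in mutant 1 ovary and 19.9% in mutant 2 ovary separated downward in this way. The share in brain was not counted. The log2 change of mRpS29 was 0.13 and 0.14 in mutant 1 and mutant 2 brains, neither called, and -0.27 and -0.29 in the ovaries, both called. The number of members called was 5 with RLE factors, 2 with upper-quartile factors and 6 with DESeq2. The median difference over members was 0.07, against -0.03 for all genes. The call was lost without wild-type brain library 1 (adjusted p = 0.0983), wild-type brain library 2 (adjusted p = 0.117) or mutant 1 brain library 2 (adjusted p = 0.0655). Members called numbered 4 without mutant 2 brain library 1 or wild-type ovary library 3, 6 without mutant 1 ovary library 1 and 3 without mutant 2 ovary library 1. Without the 3 ovary libraries richest in fat body markers the difference for mRpS29 was 0.30 (adjusted p = 0.219) and no member was called. Among the other lists, 18 of 86 cytoplasmic ribosomal proteins and 2 of 73 oxidative phosphorylation subunits were called higher in this comparison.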

How the data were processed

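The authors deposited S2 values as whole-number counts per transcript. Per the labels' protocols, a 3′-end kit was used on total RNA. For tissue the authors deposited estimated counts by gene. Per the labels' protocols, that RNA was rRNA-depleted and the kit directional. Of these values 9.73% in brain and 7.31% in ovary were not whole, and they were rounded. The submitters' processing notes name dm3, and for tissue Trim Galore 0.6.2 and Salmon 1.2.1. Neither the S2 aligner nor the strand setting is given in the sources used here. A BDGP6 annotation gave names, chromosome arms, exon lengths and overlaps, and 25653 of 26009 S2 transcripts matched a gene. Unmatched transcripts held 0.361% to 0.418% of a library's counts and were left out. A gene in S2 cells was represented by its isoform with the most counts.

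Groups of a system entered 1 fit in edgeR 4.0.16 (R 4.3.3; TMM, default low-count filter, robust quasi-likelihood F test), leaving 7152 genes in S2 cells, 9880 in brain, 8312 in ovary and 10029 over both tissues. SE is the absolute log2 change divided by the square root of F. CPM of brain and ovary share TMM factors over 15 libraries. Alternatives were RLE and upper-quartile factors, no filter, DESeq2 1.42.0, a replicate block and each library left out. Unpaired fits were tested on simulated counts with genes changed 1.25-, 1.5-, 2- and 4-fold. The S2 fit called 0%, 2%, 10% and 56% of them in the right direction. Brain gave 24%, 58%, 92% and 92%, and ovary 32%, 78%, 80% and 92%. A member without a call, above all in S2 cells, may thus still have changed.

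Replicates are called biological, but the labels name no separate cultures or dissections. The p-values therefore cover only the variation among these libraries, which may be technical. In S2 cells same-numbered libraries deviated together from their group means (correlations 0.682 to 0.805), so numbers were taken to pair samples. Named members were, per comparison and direction, up to 12 called members of largest change, 3 members of smallest p where none was called, and 3 at each end of the levels. The members, lists and rules were chosen with earlier results of these data known.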

Additional observations from a re-analysis of the deposited data

Results flagged for a closer look

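The mutant effect on mRpS29 differed between brain and ovary in a test of the difference itself, 0.389 on the log2 scale (SE 0.095, adjusted p = 0.0240 in edgeR, n = 15 libraries). All 4 mutant brain libraries were above both wild-type brain libraries, and all 6 mutant ovary libraries were below the 3 wild-type ones. Each mutant taken singly, 20.4% (mutant 1) and 19.9% (mutant 2) of all ovary genes separated downward, and the share in brain was not counted. Of 73 members mRpS29 was the one called with TMM factors (5 with RLE, 2 with upper-quartile factors, 6 with DESeq2). The 1 call was 1.37% of members, against 2.62% of 10029 genes called higher and 6.29% in all. Of the single-library omissions, 3 among brain libraries ended the call. Eggshell marker RNA was lower and summed fat body marker RNA differed between libraries in the same ovaries, and their part in the result was not tested. No group held more than 3 libraries, so single libraries were not screened for outliers.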

How the results depend on the processing

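Counts of members called stayed within 1.5 times the reported value in 274 of 312 recomputations. Counts that were 0 and stayed 0, as in most S2 and mutant brain recomputations, are among the 274. The total therefore says little about how steady the ovary counts were. The exceptions to the 1.5-fold range follow, and their causes were not tested unless stated. With the replicate block, 1 member (mRpS10) was higher in S2 cells at 48 h, where numbers pair the samples, and 13 were lower in mutant 2 ovary. In brain, same-number correlations were 0.509 between wild type and mutant 1, 0.021 between the mutants and -0.061 between wild type and mutant 2. Same-numbered wild-type and mutant 1 brain libraries thus deviated together in part. In ovary the correlations were -0.288 to 0.226. The numbers were not taken as pairs in either organ, and samples share only a number. Between wild-type brain and ovary, 1 member was higher with upper-quartile factors. For the mutant effect in brain minus ovary, 5 members were higher with RLE factors, 2 with upper-quartile factors, 6 with DESeq2 and 4 with the block. Without the 3 ovary libraries richest in fat body markers (chosen after seeing the data; fewer samples), 0 members were called in either direction in both mutant ovaries and 0 in the brain-minus-ovary mutant effect, and 1 was higher in wild-type brain than ovary. The fits without these libraries kept only 1 wild-type ovary library. The 2 fat body genes that passed the ovary filter moved in opposite directions in each mutant. mRpL53 and CG33155 summed reversed mRpL53 to 0.042 (also added later). Leaving out each library in turn gave 3 to 20 lower and 1 to 3 higher in mutant 1 ovary, 2 to 15 lower and 0 to 2 higher in mutant 2 ovary, 58 to 62 lower and 2 to 3 higher in wild-type brain, 0 to 6 higher in the mutant effect, and 0 to 0 in the S2 and mutant brain comparisons and between mutant ovaries. Among named members 839 results kept direction and side of the threshold, 108 lost their call and 1 gained one. S2 libraries had the lowest totals, which limits the precision of their values, and the pairing also mattered there: with the block, 75 genes in all were higher and 63 lower at 24 h (7 and 0 without it), and 110 and 81 at 48 h (8 and 0 without it).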
